A study of Xenopus laevis with 72 samples.

Results

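Embryos of the frog Xenopus laevis that had received a short pulse of retinoic acid (RA) were compared with control embryos of the same clutches 4.5 h after the pulse was washed out. The comparison was chosen by the treatment and time in the sample titles. It holds 12 of the 72 samples of the series, 6 treated and 6 control, 1 of each from clutches G to L. All 23 target genes of a quantitative PCR panel were examined, with gapdh as the reference gene. The series as a whole was designed to follow recovery from too much or too little RA, with 3 treatments (10 nM RA, 50 µM DEAB and control) and 4 times (0, 1.5, 3 and 4.5 h). All groups came from wildtype embryos, pulsed for 2 h from the late blastula to the early gastrula. DEAB inhibits the retinaldehyde dehydrogenases that make RA. RA and DEAB were dissolved in DMSO, and the sources used here do not give the vehicle of the controls. A clutch is the eggs of 1 female, and each sample pooled several whole embryos of 1 clutch, so that the 6 differences within clutches are the replicates. Values from whole embryos cannot tell fewer cells of a type apart from less transcript per cell.

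RA is a signal made from vitamin A (retinol) that patterns the head-to-tail axis of the gastrula. Retinol is oxidised to retinaldehyde and then to RA, and retinaldehyde can be reduced back to retinol. RA itself is hydroxylated and removed by CYP26 enzymes. RA bound to its nuclear receptors switches on hox genes, and also genes such as cyp26a1 and dhrs3 whose products lower RA, which makes a negative feedback loop. The genome of X. laevis is duplicated, and the L and S members of a gene pair are named by that suffix.

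Levels are given on the log2 scale relative to gapdh, with 0 at the median of the gene over all 72 samples, so that levels of different genes cannot be set against each other. A difference of 1 is a 2-fold difference. Threshold cycles (Ct, the PCR cycle at which a product is detected) of the genes in these 12 samples lay between 10.93 and 23.73, and no value was missing. The number of template molecules is unknown, so precision was judged from the spread between samples. The median standard error (SE) of a difference was 0.42. Each SE pools the spread over all 72 samples in 12 groups, not that of the 6 differences at 4.5 h. The standard deviation (SD) of the 6 differences had a median of 0.78 at 4.5 h (22 genes), against 0.59 to 0.71 at earlier times. At 4.5 h rdh14.L had an SE of 0.17 beside an SD of 0.93, and rdh10.L 0.30 beside 0.24. Intervals may therefore be too narrow for some genes and too wide for others. A gene was called when its p-value from limma, a linear model across all genes with clutch as a block, was under 0.05 after Benjamini-Hochberg adjustment over the 23 genes.

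At t = 4.5 h no gene was called as higher or lower in RA-treated embryos (0 of 23, 0%). At the earlier times limma had called 6 genes (26.1%) at 0 h, 9 (39.1%) at 1.5 h and 4 (17.4%) at 3 h. All were higher under RA. The 0 h count includes hoxd3.L, for which no clutch was measured in both groups at that time. At 4.5 h the mean differences were positive, most of them under 2-fold and none past the threshold. The mean difference was above 0 in 23 of 23 genes, with a median of 0.39 and a range of 0.06 to 1.50, and in 3 genes the unadjusted p was under 0.05. Over the 22 genes with complete values the median of the mean differences was 0.27, 0.64, 0.17 and 0.39 at 0, 1.5, 3 and 4.5 h. It was thus higher at 4.5 h than at 3 h, relative to gapdh and with all clutches. The median over genes of the change from 3 h was 0.017 with no reference gene and 0.13 against the mean of the panel. With gapdh, sdr16c5.L and stra6.L together as reference it was -0.13. It was 0.016 without clutch G, -0.014 without clutch L, and 0.05 to 0.29 with another clutch left out. The 5 genes of RA synthesis averaged -0.29 at 0 h, mostly through rdh10.L (-0.585) and rdh10.S (-0.74), and none of the 5 was called then. Whether the positive differences at 4.5 h are left over from an earlier rise was not tested. The exact two-sided sign-flip test, which changes the signs of the 6 clutch differences, gave an unadjusted p under 0.05 in 2 genes. Each was at 0.03125, the smallest p it can give. After adjustment it called 0 genes, but a call would need many of the 23 genes at that smallest p. RA and control samples overlapped in each of the 23 genes, so that the share of genes with separate groups was 0%. The sign of the mean depended on the reference: 19 of 23 genes were above 0 with no reference gene, 17 of 21 with gapdh, sdr16c5.L and stra6.L together, and 9 of 23 against the mean of the panel. The median over genes was then 0.26, 0.21 and -0.08. Differences against the mean of the panel average 0 by construction over the genes without missing values, so that some signs must turn there. The joint reference takes in sdr16c5.L and stra6.L, which differed by 0.41 and 0.13 relative to gapdh and so lower the others. Relative to gapdh and without clutch L, 17 of 23 genes were above 0. The genes share the same 12 samples and 1 reference gene, so that their signs are not independent.

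**Figure D1:**
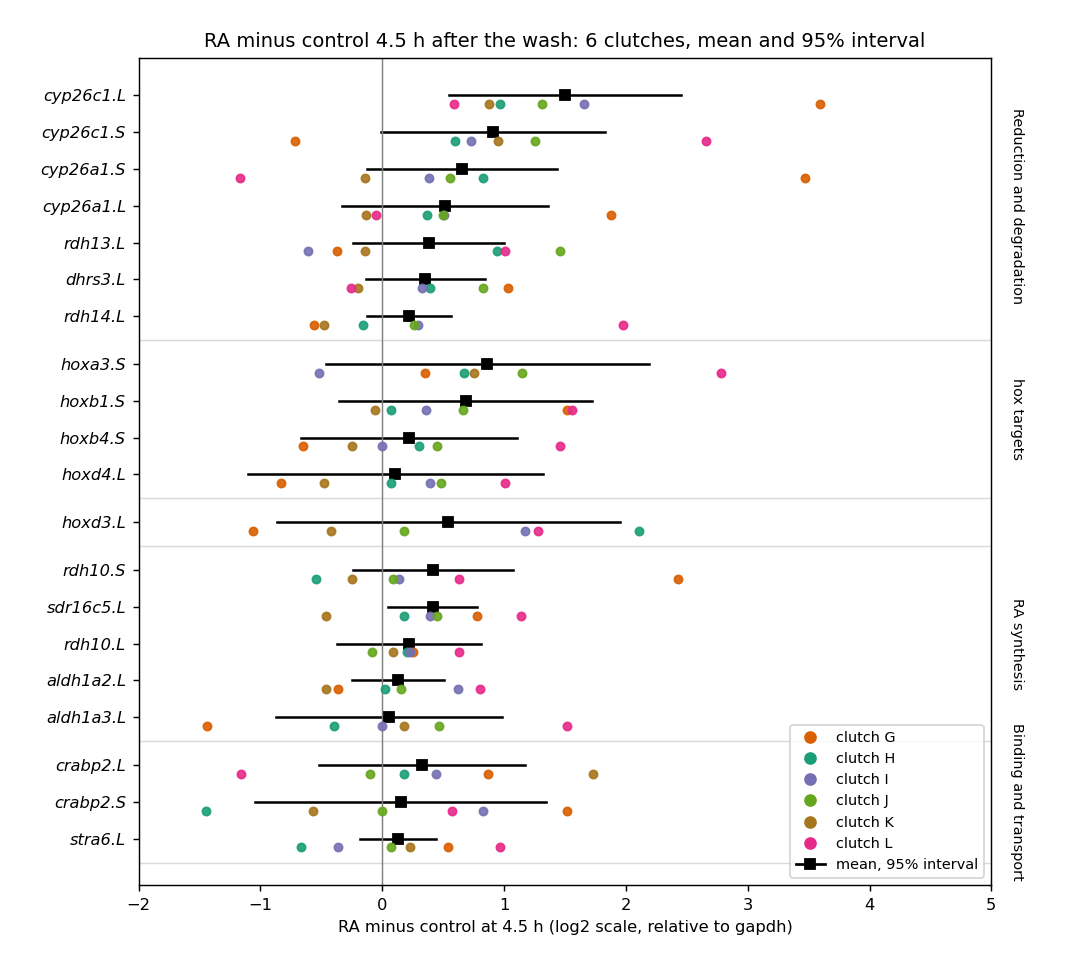
RA minus control at 4.5 h on the log2 scale (horizontal axis) for 20 genes grouped by role. Coloured points are the 6 clutches, black squares the mean, and black lines the 95% interval of limma. cyp26c1.L is the gene with all 6 points above 0 and the highest mean, 1.50, while most other intervals span 0.

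The gene farthest from its control level was cyp26c1.L (gene ID 108696124). Its product hydroxylates RA and so removes it. In controls of clutches G, H, I, J, K and L its level was 1.14, 3.72, 3.10, 2.88, 2.73 and 2.07. In the RA-treated samples of the same clutches it was 4.73, 4.69, 4.76, 4.19, 3.61 and 2.66. Each RA-treated sample was above its own control, and 4 of the 6 were above all controls, although the RA-treated sample of clutch L was below 4 of the controls. The mean difference was 1.50 (SE 0.48, 95% interval 0.55 to 2.45), or 2.83-fold, in 6 of 6 clutches, and it missed the threshold with limma (adjusted p = 0.0582). Clutch G contributed a difference of 3.59, against 0.59 to 1.66 in the others, and without it the mean was 1.08 (adjusted p = 0.461). The gene was called without clutch H (1.61, adjusted p = 0.00490) or without clutch K (1.62, adjusted p = 0.0385), and in a limma fit of the 12 samples of this comparison alone (adjusted p = 0.0131). It was also called when p-values were adjusted over all 8 comparisons of a treatment with controls (adjusted p = 0.0291). That pool holds the small p-values of the earlier times, which make the adjustment milder for this gene.

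Its S member cyp26c1.S (gene ID 735026) ran from 1.46 to 4.14 in controls (median 3.18) and from 2.99 to 4.35 under RA (median 4.05). The RA-treated sample was higher in 5 of 6 clutches, with a mean difference of 0.91 (95% interval -0.01 to 1.83, adjusted p = 0.260), or 0.56 without clutch L. Differences were -0.72 in clutch G, 2.66 in L, and 0.60 to 1.25 in H, I, J and K. Clutches G and L thus differed in opposite order in the 2 members. In clutch G cyp26c1.L was the member with the large positive difference, and its control sample was the lowest of the 6 for cyp26c1.L and the highest for cyp26c1.S. In clutch L it was cyp26c1.S. In the remaining 4 clutches the means were 1.21 for cyp26c1.L and 0.88 for cyp26c1.S, with every one of those differences above 0.

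The other RA-hydroxylating gene of the panel, cyp26a1, was already called at 0 h. At 4.5 h its L member (gene ID 496314) ran from -0.54 to 1.79 in controls (median 0.51) and from 0.36 to 2.29 under RA (median 0.96). The differences in clutches G to L were 1.88, 0.37, 0.51, 0.50, -0.13 and -0.05, which gave a mean of 0.51 (95% interval -0.33 to 1.36, adjusted p = 0.377). Without clutch G the mean was 0.24. cyp26a1.S (gene ID 398094) ran from -2.02 to 1.35 in controls (median 0.06) and from -1.21 to 1.91 under RA (median 0.57). Its differences were 3.47, 0.83, 0.38, 0.56, -0.14 and -1.17, with a mean of 0.66 (95% interval -0.12 to 1.43, adjusted p = 0.375). It differed by 0.09 without clutch G and by 1.02 without clutch L. Both members were thus above control in 4 of 6 clutches, and the mean of each rested largely on clutch G.

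dhrs3.L (gene ID 444269) encodes a reductase that returns retinaldehyde to retinol and so withholds the substrate for RA synthesis. In controls it ran from -0.18 to 1.48 (median 0.95) and under RA from -0.44 to 1.96 (median 1.67). The differences were 1.03, 0.39, 0.33, 0.83, -0.20 and -0.26 in clutches G to L. The mean of 0.35, or 1.28-fold, had a 95% interval of -0.14 to 0.84 (adjusted p = 0.377), and it was 0.22 without clutch G. The upper limit of this limma interval lay below a 2-fold difference, as it did in 9 of 23 genes (39.1%), dhrs3.L included. These limits pool the spread over all 72 samples, and the 4.5 h differences alone may allow more in genes such as rdh14.L (SD 0.93). In 4 clutches the RA-treated sample was higher than all 6 controls, and in K and L it was lower than its own control. The other retinaldehyde reductases of the panel, rdh13.L (gene ID 444106) and rdh14.L (gene ID 108717195), differed by 0.38 (95% interval -0.24 to 0.999) and 0.22 (-0.12 to 0.57), each higher in 3 of 6 clutches. For rdh13.L the mean was 0.17 without clutch J and 0.26 without clutch L. For rdh14.L the mean rested on clutch L, at 1.98 against -0.56 to 0.29 in the others, and without it the mean was -0.13. In the list of reduction and degradation, 7 of 7 genes had a mean above 0, 0 were called, and the median of their differences was 0.51, beside 0.39 over all 23 genes. Against the mean of the panel dhrs3.L, rdh13.L and rdh14.L turned to -0.12, -0.089 and -0.25.

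**Figure D2:**
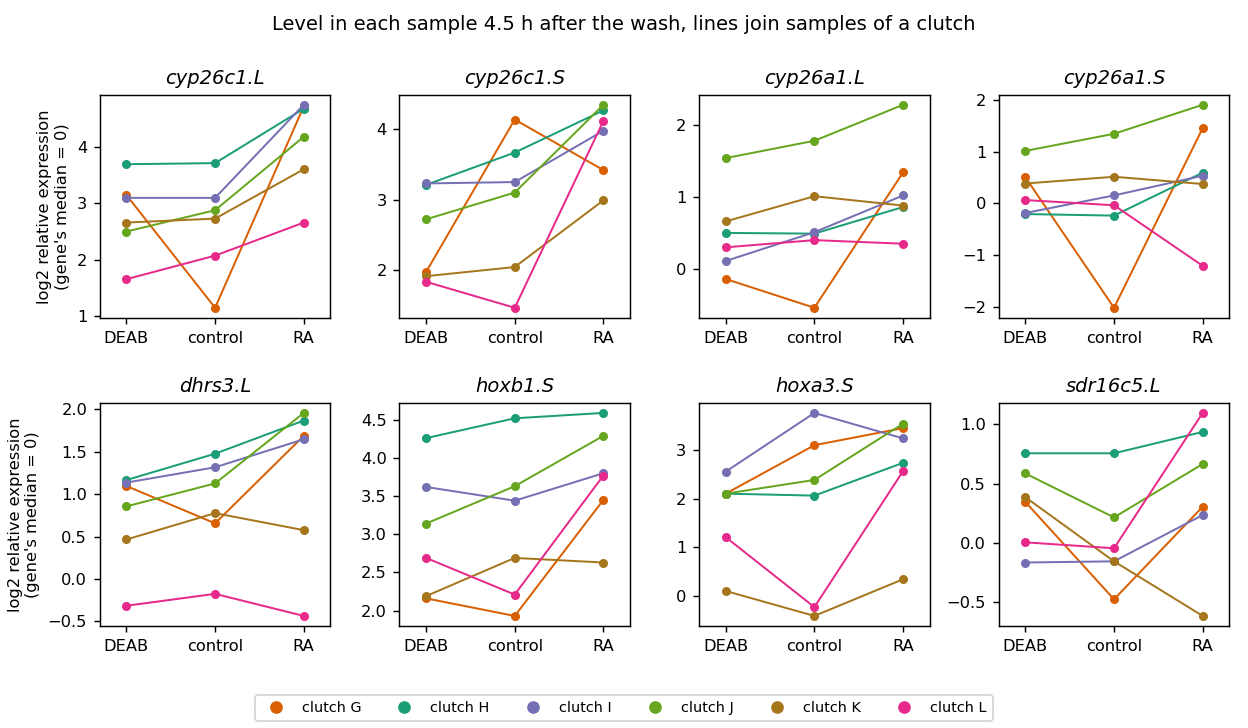
Level of 8 genes in each sample at 4.5 h (log2 relative expression, vertical axis, a scale of its own for each gene) in DEAB, control and RA embryos. Lines join the 3 samples of a clutch. For cyp26c1.L the control sample of clutch G, at 1.14, is below the DEAB sample of the same clutch at 3.15.

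The hox genes of the panel encode homeobox factors that give cells their position along the axis, and serve here as targets of RA. hoxb1.S (gene ID 108702519), which marks the hindbrain, ran from 1.93 to 4.52 in controls (median 3.07) and from 2.63 to 4.59 under RA (median 3.79). Its differences in clutches G to L were 1.52, 0.07, 0.36, 0.66, -0.06 and 1.56, and the mean was 0.68 (95% interval -0.35 to 1.72, adjusted p = 0.377). It was higher in 5 of 6 clutches, most in G and L, and the mean over the other 4 clutches was 0.26. hoxa3.S (gene ID 379985) ran from -0.40 to 3.75 in controls (median 2.22) and from 0.35 to 3.53 under RA (median 2.98). Its differences were 0.35, 0.67, -0.52, 1.15, 0.75 and 2.78, with a mean of 0.86 (95% interval -0.46 to 2.19, adjusted p = 0.377), or 0.48 without clutch L. The level in clutch K was low in both treatments, at -0.40 and 0.35. hoxa3.S was detected late, with a mean Ct of 21.83 over all samples. In clutch K its Ct was 23.07 in the control and 22.16 under RA.

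In paralogue group 4, hoxb4.S (gene ID 734796) ran from 1.44 to 3.24 in controls (median 2.80) and from 2.295 to 3.51 under RA (median 2.74). Its differences were -0.65, 0.30, 0.00, 0.45, -0.25 and 1.46, with a mean of 0.22 (95% interval -0.67 to 1.11) and -0.03 without clutch L. hoxd4.L (gene ID 100380950) differed by 0.11 (95% interval -1.10 to 1.32), higher in 4 of 6 clutches and -0.07 without clutch L. Over the study's set of 6 hox targets, 6 of 6 had a mean above 0, 0 were called, and the median difference was 0.68. Against the mean of the panel hoxb4.S and hoxd4.L turned to -0.25 and -0.36, and hoxd4.L also turned with the other 2 references. hoxd3.L (gene ID 100036911) is kept apart because it lacked values in samples of earlier times. It ran from 0.37 to 2.66 in controls and from 1.6 to 3.28 under RA, and differed by 0.54 (95% interval -0.86 to 1.95), with -1.06, 2.11, 1.17, 0.18, -0.42 and 1.28 in clutches G to L. Without clutch H it differed by 0.23.

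None of the 5 genes whose products make RA was called. sdr16c5.L (gene ID 444148), which encodes a retinol dehydrogenase, ran from -0.48 to 0.76 in controls (median -0.10) and from -0.62 to 1.095 under RA (median 0.49). The differences were 0.78, 0.18, 0.39, 0.45, -0.46 and 1.14, and the mean of 0.41 had a 95% interval of 0.05 to 0.78 (unadjusted p = 0.0278 with limma, adjusted p = 0.260). The exact sign-flip test on these 6 differences gave an unadjusted p of 0.156. Under DEAB sdr16c5.L was also above control, by 0.295 (adjusted p = 0.980 with limma). sdr16c5.L was called without clutch K, the 1 clutch in which it was lower under RA (0.59, adjusted p = 0.0385), and its mean was 0.27 without clutch L and turned to -0.06 against the mean of the panel. rdh10.L (gene ID 446860), for the main retinol-oxidising enzyme of the embryo, differed by 0.22 (95% interval -0.37 to 0.81), or 0.14 without clutch L, and was higher in 5 of 6 clutches. rdh10.S (gene ID 431995) differed by 0.42 (-0.24 to 1.08), but by 0.01 without clutch G, where its control stood at -2 and both treated samples at 0.43. The RA-producing dehydrogenase genes aldh1a2.L (gene ID 399389) and aldh1a3.L (gene ID 733178) differed by 0.13 (95% interval -0.25 to 0.51) and 0.06 (-0.87 to 0.98), and by -0.006 and -0.24 without clutch L. The median of the 5 synthesis genes was 0.22.

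Among the genes of binding and transport, crabp2.L (gene ID 378522) and crabp2.S (gene ID 108700362), for a protein that carries RA to its receptor, differed by 0.33 (95% interval -0.52 to 1.17) and 0.15 (-1.05 to 1.35). Their clutch differences ran from -1.16 to 1.73 and from -1.45 to 1.52, so that these 2 genes were measured with little precision. crabp2.L was at 0.05 without clutch K, 0.22 without G and 0.62 without L, and crabp2.S at -0.12 without G. stra6.L (gene ID 108711302), for the retinol uptake receptor, differed by 0.13 (95% interval -0.18 to 0.44), or -0.038 without clutch L. The median of the 4 genes of this list was 0.24, and 0 were called.

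The 4.5 h differences were then set against those of the earlier times, to ask how far each response had declined. The difference of dhrs3.L fell by 2.33 between 0 h and 4.5 h (95% interval of the change -3.02 to -1.64, adjusted p = 1.89e-07 with limma) and fell by 1.91 between 1.5 h and 4.5 h (adjusted p = 1.82e-05), a decline in 6 of 6 clutches in both cases. In fold terms it was 6.42-fold above control at the wash, 4.81-fold after 1.5 h, 1.90-fold after 3 h and 1.28-fold after 4.5 h. cyp26a1.L fell by 1.99 from 1.5 h to 4.5 h (adjusted p = 0.0114, smaller in 6 of 6 clutches), from 5.68-fold to 1.43-fold, and the call ended without clutch H (-1.75, adjusted p = 0.0709) or without clutch L (-1.81, adjusted p = 0.102), and against the mean of the panel (-1.51, adjusted p = 0.0658). cyp26a1.S fell by 1.52 (adjusted p = 0.0443, smaller in 4 of 6 clutches), from 4.52-fold to 1.57-fold, a call that ended without clutch H (-1.84), I (-1.47), J (-1.34), K (-1.38) or L (-1.05), with adjusted p between 0.0554 and 0.432. It also ended with no replicate block (adjusted p = 0.0563), no reference gene (0.0767), the mean of the panel (0.144) or only the samples compared (0.169). Against 0 h the changes were -1.15 for cyp26a1.L (adjusted p = 0.172) and -1.44 for cyp26a1.S (adjusted p = 0.0651). Without clutch G they were -2.20 and -2.33, and both were called. cyp26a1.S was also called with a block for each clutch and time (adjusted p = 0.0362), and both members were called with no reference gene (adjusted p = 0.0433 and 0.0381). In all, 4 of 23 genes (17.4%) were called as having a smaller difference at 4.5 h than at 1.5 h and 2 (8.7%), dhrs3.L and hoxd3.L, than at 0 h. The value of hoxd3.L, -8.99, rests on a 0 h difference estimated with no clutch measured in both groups.

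The decline of cyp26c1 was not called. At 0, 1.5, 3 and 4.5 h cyp26c1.L had differed by 0.77, 2.32, 1.64 and 1.50, so that its change from 1.5 h to 4.5 h was -0.82 (95% interval -2.17 to 0.52, adjusted p = 0.572). cyp26c1.S had differed by 0.41, 1.97, 1.3 and 0.91 at the same times, with a change of -1.06 (95% interval -2.36 to 0.24, adjusted p = 0.499). Both intervals also allow a decline as large as that of dhrs3.L. hoxb1.S had differed by 0.62, 1.60, 0.69 and 0.68, and its change from 1.5 h was -0.91 (95% interval -2.38 to 0.56, adjusted p = 0.572). hoxb4.S changed by -0.95 from its 1.17 at 1.5 h (adjusted p = 0.516, smaller in 6 of 6 clutches). From 3 h to 4.5 h no gene was called (0%), and 0 genes had an unadjusted p under 0.05. For dhrs3.L that last step was -0.57 (95% interval -1.27 to 0.12), smaller in 5 of 6 clutches. All these changes share the 4.5 h samples.

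**Figure D3:**
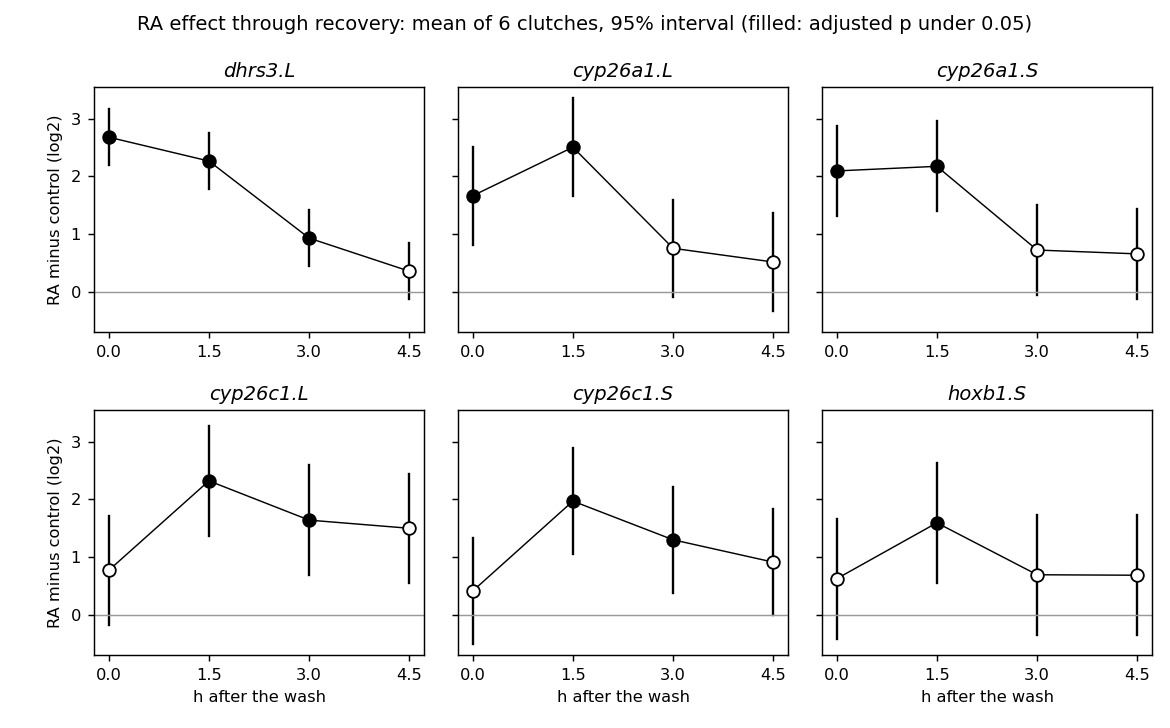
RA minus control on the log2 scale (vertical axis) against hours after the wash for 6 genes, as the mean of 6 clutches with the 95% interval of limma. Filled points have an adjusted p under 0.05. dhrs3.L runs from 2.68 at 0 h to 0.35 at 4.5 h, and cyp26c1.L from 2.32 at 1.5 h to 1.50 at 4.5 h.

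Of the 10 genes called under RA at some earlier time, 10 had a mean above 0 at 4.5 h, and 0 were called. That share above 0 was the same as over all 23 genes relative to gapdh. hoxd3.L is 1 of these 10 only through its 0 h value, with no clutch measured in both groups. Means over the lists were highest at 1.5 h for reduction and degradation and for hox. Genes of reduction and degradation stood 1.09, 1.63, 0.75 and 0.65 above control at 0, 1.5, 3 and 4.5 h, and hox targets 1.04, 1.45, 0.64 and 0.60. The synthesis genes stood at -0.29, 0.05, 0.05 and 0.25, and the genes of binding and transport at 0.29, 0.15, -0.07 and 0.25. The hox mean at 0 h was not shared by all members: the 4 reported singly lay between -0.09 and 0.62, and none was called. hoxa3.S and hoxd4.L were not called at any time. At 4.5 h the list mean of reduction and degradation was 0.65 ± 0.37 (SD, n = 6) and that of the hox targets 0.60 ± 0.54, each above 0 in 6 of 6 clutches. Against the mean of the panel these means were 0.18 and 0.13. In clutch K the mean of reduction and degradation, 0.11, rested on cyp26c1.L (0.88) and cyp26c1.S (0.95). The other genes of that list were below control in that clutch. Synthesis was at 0.25 ± 0.40, above 0 in 4 of 6, and binding and transport at 0.25 ± 0.50, above 0 in 5 of 6. Without clutches G and L the 4 means were 0.51, 0.37, 0.05 and 0.07. The lists follow the panel that the study selected, and no test was made of them.

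The controls themselves still changed in the last step of recovery, which gives a scale for the differences at 4.5 h. Between 3 and 4.5 h cyp26c1.L rose by 2.18 in controls (adjusted p = 1.92e-04 with limma), cyp26c1.S by 2.26 (adjusted p = 9.06e-05) and hoxb1.S by 1.91 (adjusted p = 0.00298). The differences under RA at 4.5 h, 1.50, 0.91 and 0.68, were thus smaller than the rise of their controls over the preceding 1.5 h. dhrs3.L differed by 0.41 in controls over that step (adjusted p = 0.190), cyp26a1.L by 0.38 (adjusted p = 0.535) and cyp26a1.S by -0.40 (adjusted p = 0.473). These 3 genes had no called change in controls over that step, beside differences under RA of 0.35, 0.51 and 0.66.

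The clutches did not contribute alike. RA-treated embryos were above control in 15 of 23 genes in clutch G, 17 in H, 18 in I, 20 in J, 9 in K and 19 in L. The median difference over the 23 genes was 0.54, 0.20, 0.38, 0.47, -0.14 and 1.01 in that order. The mean size of a difference without regard to sign was 1.23 in G and 1.14 in L, against 0.46 to 0.55 in the other 4. The control sample of clutch G was the lowest of the 6 controls for 11 genes, and its root mean square distance from the fit, 0.97, ranked 7 of 72 samples. The same sample was the highest control for aldh1a2.L, rdh13.L, rdh14.L, cyp26c1.S, hoxb4.S and hoxd3.L, all lower under RA in that clutch. In that clutch cyp26a1.S stood at -2.02 in the control, 0.51 under DEAB and 1.46 under RA. The DEAB sample of clutch G was itself the lowest of the 6 DEAB samples for cyp26a1.L (-0.135), hoxb1.S (2.16) and crabp2.S (2.685), genes with G differences of 1.88, 1.52 and 1.52. The control of clutch L was the lowest control for 9 genes, and its RA-treated sample lay at a root mean square distance of 0.73 (rank 13 of 72). The RA-treated sample of clutch K was the lowest RA-treated sample for 10 genes, at a distance of 0.68 (rank 16). The part that single samples of clutches G, K and L play in the means was not tested beyond leaving each clutch out.

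The reference gene varied between paired samples. The Ct of gapdh was 13.8 ± 0.96 (SD, n = 6) in controls and 13.9 ± 1.01 under RA, with differences of 0.46, -0.88, -0.67, 1.01, -0.16 and 1.06 cycles in clutches G to L (exact two-sided sign-flip test, p = 0.719). A higher gapdh Ct raises the relative level of every target gene in that sample. With no reference gene the median difference was 0.08, 1.08, 1.05, -0.54, 0.02 and -0.05 in the same order. Clutches H and I thus had 22 and 23 genes above control without the reference and clutch J had 4, against 17, 18 and 20 with it. Input RNA and gapdh expression cannot be told apart here. cyp26c1.L kept a mean of 1.36 with no reference gene (adjusted p = 0.277) and 1.03 against the mean of the panel (adjusted p = 0.0882). It was called in neither case.

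**Figure D4:**
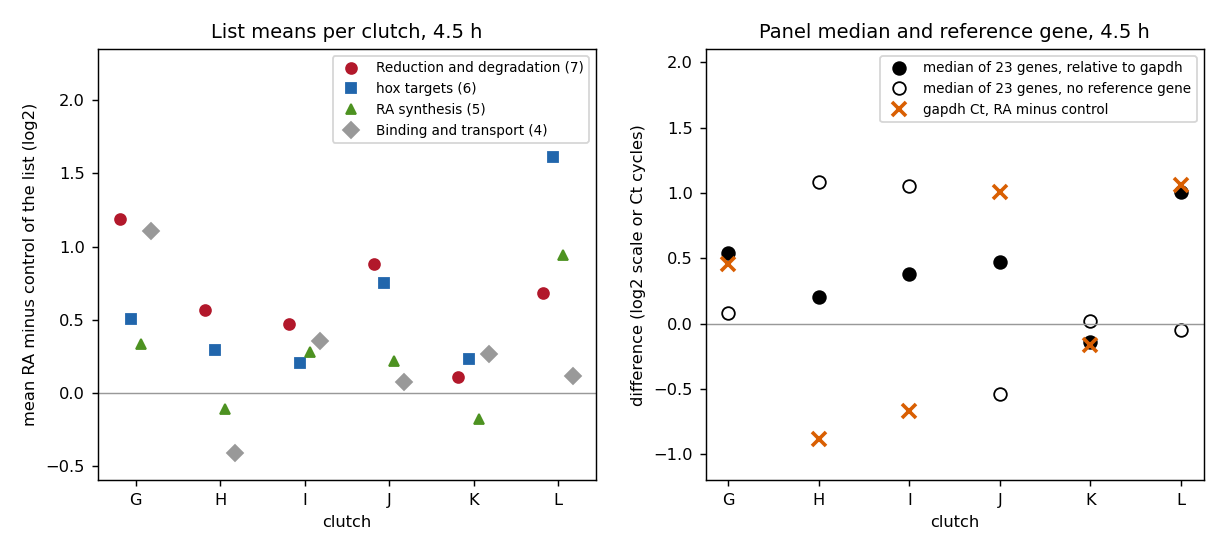
Left, mean RA minus control at 4.5 h over the genes of each list (log2 scale, vertical axis) in clutches G to L; reduction and degradation runs from 0.11 in K to 1.19 in G. Right, median difference of the 23 genes relative to gapdh (filled) and with no reference gene (open), and the RA minus control difference of the gapdh Ct (crosses, in cycles); filled and open points differ by the gapdh value, most in clutches H, I, J and L.

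Embryos pulsed with DEAB and collected at the same time gave a second comparison. In them RA synthesis rather than RA supply had been perturbed, so they are not an untreated baseline. For cyp26c1.L the RA-treated sample was above the DEAB sample in 6 of 6 clutches, by 0.95 to 1.69 (mean 1.31, 95% interval 0.36 to 2.26, adjusted p = 0.0586 with limma). For cyp26c1.S it was above in 6 of 6 clutches by 0.75 to 2.29 (mean 1.38, 95% interval 0.46 to 2.297, adjusted p = 0.0586). The spread for cyp26c1.L was thus narrower against DEAB than against control, where clutch G stood at 3.59. Of the other genes reported singly, hoxb1.S, hoxa3.S and cyp26a1.L were above DEAB in 6 of 6 clutches, with means of 0.75, 0.95 and 0.63 (adjusted p = 0.406 for each). rdh13.L was above DEAB in 5 of 6 clutches, with a mean of 0.66 (unadjusted p = 0.0362 with limma, adjusted p = 0.208). In the comparison of RA with DEAB 0 of 23 genes were called, and 4 had an unadjusted p under 0.05. DEAB differed from control by 0.19 in cyp26c1.L and by -0.47 in cyp26c1.S (adjusted p = 0.980 for each). In the synthesis genes it differed by 0.295 in sdr16c5.L, 0.11 in rdh10.L, 0.415 in rdh10.S, 0.16 in aldh1a2.L and 0.035 in aldh1a3.L (adjusted p = 0.980 for each). RA minus DEAB was 0.12, 0.11, 0.0017, -0.032 and 0.02 in the same order. Positive differences of these genes from control were thus also present under DEAB, and the cause was not tested. The comparisons of RA with DEAB share the RA samples with the comparison against control, and those of DEAB with control share its control samples.

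For 5 pairs with both members on the panel, the L and S members were compared within each sample. No pair was called (0 of 5, all with adjusted p = 0.771 with limma, adjusted over the 5 pairs). The L minus S difference of the RA effect was 0.59 for cyp26c1 (95% interval -0.29 to 1.47), but 4.31 in clutch G and -2.07 in clutch L. Without G it was -0.16, and without L it was 1.12 (95% interval 0.16 to 2.08, adjusted p = 0.113). It was -0.14 for cyp26a1 (95% interval -0.91 to 0.62), -0.20 for rdh10 (-0.94 to 0.54) and 0.18 for crabp2 (-1.03 to 1.38). Each of these signs turned when 1 clutch was left out: cyp26a1 was at 0.15 and rdh10 at 0.2 without G, and crabp2 at -0.11 without H and -0.25 without K. The width of these intervals does not show that the members of a pair acted alike.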

How the data were processed

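Per the study's methods, RNA of pooled embryos was reverse transcribed, preamplified for 22 cycles and run on microfluidic quantitative PCR arrays with a DNA-binding dye. The authors deposited median Ct values over 3 preamplification runs, and log2 relative expression. In the deposited log2 values, all 1637 target values equalled gapdh Ct minus gene Ct, centred on the gene's median over 72 samples, within 0.001. Unequal amplification and a change in gapdh would affect them.

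limma 3.58.1 (R 4.3.3; lmFit, eBayes) was fitted to all 72 samples in 12 groups with clutch as a fixed block. Clutches pair the samples because each is 1 set of siblings. In this comparison deviations correlated by 0.42 on average within clutches (0.03 in G, -0.10 in L and 0.52 to 0.82 in the others) and by -0.08 between them. Changes with time were contrasts of contrasts, and gapdh was tested by an exact sign-flip permutation. The fit was tested on simulated data with independent noise and the same spread for a gene in all groups. That simulation cannot show the effect of unequal spread between times or of a shared reference gene. Clutch differences are given for genes with an unadjusted p under 0.05, the 8 largest differences and genes called earlier. Members, lists and tests were chosen with earlier results of these data known. Alternatives were other blocks, references, filters and adjustments, and clutches left out. Weakly expressed genes were those with a mean Ct over 20 or with missing values: hoxd4.L, aldh1a3.L, hoxa3.S and hoxd3.L. Gene IDs (24 of 24) matched RefSeq assembly Xenopus_laevis_v10.1, used for names only. The files label hoxd3 and gapdh as they are named here, where the methods list S members. In all, 3 genes stay in fits and counts but are not reported here singly. Plots were drawn with matplotlib.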

Additional observations from a re-analysis of the deposited data

Results flagged for a closer look

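Single clutches stood apart in 4 of 62 groups of 6 values examined at 4.5 h, where chance flags about 1 in 20. In clutch G the RA minus control difference was 3.59 for cyp26c1.L, against 0.59 to 1.66 in the other clutches, and 1.88 for cyp26a1.L, against -0.13 to 0.51. In clutch L the difference of rdh14.L was 1.98, against -0.56 to 0.29. The RA-treated sample of clutch K had a hoxa3.S level of 0.35, against 2.56 to 3.53 in the other RA-treated samples. Its control was also low, at -0.40.

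The RA effect differed between 4.5 h and an earlier time, by limma's test of the change itself. The change from 0 h was -2.33 for dhrs3.L (adjusted p = 1.89e-07) and -8.99 for hoxd3.L (adjusted p = 8.75e-07), the latter with no clutch measured in both groups at 0 h. The change from 1.5 h was -1.91 for dhrs3.L (adjusted p = 1.82e-05), -1.99 for cyp26a1.L (adjusted p = 0.0114) and -1.52 for cyp26a1.S (adjusted p = 0.0443).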

How the results depend on the processing

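For single genes, 323 of 384 values under an alternative kept their direction and side of the threshold, 33 changed sign, 15 gained and 13 lost a call. The share kept does not measure robustness. Other blocks, robust eBayes, only the samples compared, or weak genes left out give the same difference by design, so its direction could not change. A gene not called in the main fit could not lose a call. The count of genes called at 4.5 h was 0 with no replicate block, which drops the pairing by clutch, with no reference gene, the panel mean, the joint reference (gapdh, sdr16c5.L and stra6.L), robust eBayes, the exact test, and without clutches G and L (an alternative chosen after seeing the data). It was 1, cyp26c1.L, with a clutch-by-time block, only the samples compared, weakly expressed genes left out, adjustment over the 8 comparisons, or a threshold of 0.1, and 0 to 2 with each clutch left out. The count for the change from 0 h was 2, and 6 with the clutch-by-time block, 5 with no reference gene, 7 with the panel mean, 5 with the joint reference, 1 without weakly expressed genes, 4 without G and L, and 2 to 5 with each clutch left out. The count for the change from 1.5 h was 4, and 2 with no replicate block, no reference gene, the panel mean, or without G and L, 3 with only the samples compared, and 1 to 3 with each clutch left out. Pairs called were 0 throughout, also with no replicate block.

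Signs turned as follows. With no reference gene aldh1a2.L was at -0.0083, hoxd4.L -0.03, aldh1a3.L -0.082 and stra6.L -0.0067. With the joint reference aldh1a2.L was at -0.053, hoxd4.L -0.074, aldh1a3.L -0.13 and crabp2.S -0.031. Against the panel mean, which holds the genes that differed, these were at -0.34 (aldh1a2.L), -0.36 (hoxd4.L), -0.089 (rdh13.L), -0.25 (rdh14.L), -0.42 (aldh1a3.L), -0.14 (crabp2.L), -0.32 (crabp2.S), -0.12 (dhrs3.L), -0.25 (hoxb4.S), -0.25 (rdh10.L), -0.054 (rdh10.S), -0.058 (sdr16c5.L) and -0.34 (stra6.L). The list mean was then -0.22 for synthesis, -0.22 for binding and transport, 0.18 for reduction and degradation and 0.13 for hox targets. Differences against the panel mean average 0 by construction over the genes without missing values, so that some of these signs must turn. Without clutches G and L rdh14.L was at -0.023, crabp2.S -0.30, rdh10.S -0.14 and stra6.L -0.18. Leaving out each clutch gave -0.006 to 0.25 for aldh1a2.L, -0.24 to 0.35 for aldh1a3.L, -0.12 to 0.47 for crabp2.S, -0.03 to 0.39 for hoxb4.S, -0.074 to 0.29 for hoxd4.L, -0.13 to 0.38 for rdh14.L, -0.038 to 0.29 for stra6.L, and -0.048 to 0.34 cycles for the gapdh Ct. The cause of these changes was not tested. Precision is limited by 6 clutches and 1 reference gene: for 2 genes the 95% interval reached below -1, and the upper limit went up to 5.47-fold.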
